A study of Mus musculus with 3 samples.

Results

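The step examined here is the first day of erythropoietin culture of mouse fetal liver erythroblasts, read as nucleosome position lists from micrococcal nuclease sequencing on day 0 and on day 1. The members are all listed positions on autosomes 1 to 19 of those lists, 3689577 positions on day 0 and 2967550 on day 1. They come from whole lists of 3735952 and 2999502 positions, and from 2 of the 3 libraries of the study. Each day had 1 library, so no comparison below has a replicate check and none carries a p-value. Where a spread is given, it is the spread over autosomes of the same library pair, which measures how evenly a difference is found along the genome and not how it would repeat in another culture.

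The cells came from Ter119-negative erythroblasts of the livers of 6 fetuses, that is, red cell precursors that do not yet carry a late surface antigen. Whether the day 1 cells still lacked that antigen was not checked, as position lists hold no surface antigen data. The labels give no strain, genotype or fetal age. Both days shared the same medium, IMDM with erythropoietin at 2 U/ml, insulin, serum (10% FBS) and albumin (1% BSA). Day 0 cells were taken at the start of culture and day 1 cells after 1 day, and cells were purified on each day before chromatin was isolated and cut to mononucleosomes. The study asked how nucleosomes change during terminal erythropoiesis. The labels do not say whether the fetuses were pooled, nor how the purification was done. Position lists hold no RNA, so the erythroid label was not checked against expression of marker genes. In such bulk chromatin, a change in the mix of cells and a change within cells cannot be told apart.

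A nucleosome is a stretch of DNA wound around a core of histones. Micrococcal nuclease cuts the linker DNA between nucleosomes and leaves the wound DNA, so that the protected fragments mark where nucleosomes sat. Active promoters of mammalian genes commonly have a stretch with few nucleosomes just before the transcription start and a regular row of nucleosomes after it, the first of which is called the +1 nucleosome. In terminal erythropoiesis, committed precursors switch on globin, heme and membrane genes under factors such as Gata1 and Klf1, divide a few more times, condense their chromatin and finally expel the nucleus.

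The values used are, for each listed position, its centre, its summit value (the height of the smoothed signal at the centre) and its fuzziness score (the spread of fragment centres around it, higher where the nucleosome is less fixed). Each listed position is 140 bp wide, and centres in either list are at least 100 bp apart. To show what a listed position looks like in sequence, the promoters of 3 blood cell genes follow, chosen after their values were seen because they differ in how the listed positions moved. Each line gives the 250 bases before the gene start, 5′ to 3′ along the gene, from RefSeq for GRCm38.p6 (mm10). Capitals mark bases inside a listed position of that day, lower case marks bases outside any. Ikzf1, which encodes a zinc finger transcription factor of blood cells, is at chr11:11685675-11685924 on the plus strand. Klf1, the erythroid Krüppel-like factor, is at chr8:84901732-84901981 on the plus strand. Epor, the erythropoietin receptor, is at chr9:21963577-21963826 on the minus strand.
Ikzf1 day 0: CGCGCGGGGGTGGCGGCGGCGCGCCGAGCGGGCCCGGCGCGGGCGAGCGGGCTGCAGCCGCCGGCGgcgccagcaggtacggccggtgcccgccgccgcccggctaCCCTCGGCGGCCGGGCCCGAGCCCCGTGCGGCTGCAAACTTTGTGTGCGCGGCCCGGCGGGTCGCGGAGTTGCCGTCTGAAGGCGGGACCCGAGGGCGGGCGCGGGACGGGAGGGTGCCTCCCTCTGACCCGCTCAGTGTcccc
Ikzf1 day 1: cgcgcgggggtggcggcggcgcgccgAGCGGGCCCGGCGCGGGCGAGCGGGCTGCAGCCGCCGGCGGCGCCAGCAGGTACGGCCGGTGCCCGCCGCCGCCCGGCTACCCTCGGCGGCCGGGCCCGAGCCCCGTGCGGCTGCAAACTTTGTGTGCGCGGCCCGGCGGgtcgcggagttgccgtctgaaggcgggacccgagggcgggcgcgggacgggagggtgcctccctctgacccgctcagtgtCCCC
Klf1 day 0: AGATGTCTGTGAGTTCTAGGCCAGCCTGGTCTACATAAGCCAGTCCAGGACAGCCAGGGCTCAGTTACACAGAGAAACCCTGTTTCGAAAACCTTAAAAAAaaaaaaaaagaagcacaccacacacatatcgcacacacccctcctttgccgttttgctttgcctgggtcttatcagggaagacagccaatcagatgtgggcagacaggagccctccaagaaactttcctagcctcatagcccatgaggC
Klf1 day 1: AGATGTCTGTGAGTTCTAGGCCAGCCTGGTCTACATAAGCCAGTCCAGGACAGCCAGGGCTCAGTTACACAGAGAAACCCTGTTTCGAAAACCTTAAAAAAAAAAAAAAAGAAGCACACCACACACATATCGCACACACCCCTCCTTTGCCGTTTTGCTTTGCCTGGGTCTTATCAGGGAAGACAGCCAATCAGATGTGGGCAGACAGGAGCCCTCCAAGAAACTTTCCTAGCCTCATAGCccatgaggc
Epor day 0: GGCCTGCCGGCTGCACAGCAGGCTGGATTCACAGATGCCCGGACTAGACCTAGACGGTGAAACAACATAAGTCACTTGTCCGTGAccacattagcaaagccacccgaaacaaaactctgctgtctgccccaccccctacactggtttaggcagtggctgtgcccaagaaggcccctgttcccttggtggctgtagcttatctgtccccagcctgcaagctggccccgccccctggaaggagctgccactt
Epor day 1: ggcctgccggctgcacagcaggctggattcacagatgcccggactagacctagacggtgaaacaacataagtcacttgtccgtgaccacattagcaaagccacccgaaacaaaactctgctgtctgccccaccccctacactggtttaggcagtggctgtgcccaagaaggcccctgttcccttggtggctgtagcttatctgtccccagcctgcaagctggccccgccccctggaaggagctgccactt

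In the Ikzf1 promoter, 206 of the 250 bases lay inside a listed position on day 0 and 144 on day 1, but the summits were much higher on day 1. Day 0 had centres at -254 and -74 bp from the start, with summit values of 7.62 and 6.25, and day 1 had a centre at -154 bp with a summit value of 19.5. In the Klf1 promoter, 102 bases were covered on day 0 and 241 on day 1, since day 1 added a centre at -79 bp with a summit value of 7.44. The opposite strand of this promoter holds the GATA motif letters TGATAA from 80 to 75 bp before the start, and the printed strand holds CCAAT from 64 to 60 bp before it. Both matches lay outside every listed position on day 0 and inside a listed position on day 1. In the Epor promoter, 85 bases were covered on day 0 and 0 on day 1, and its GATA match (AGATAA on the opposite strand, 54 to 49 bp before the start) was uncovered on both days. A match of letters is a description of the window and not a binding site.

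The lists differ in depth, which touches every result. Of the summit values, 98.6% on day 0 and 97.5% on day 1 lie on whole steps, which are 0.762 and 0.324 high. The Ikzf1 summit values of 6.25 on day 0 and 19.5 on day 1 are among those that do not, and why was not tested. If 1 step stands for 1 fragment and both signals were scaled to the same total, the day 1 library held 2.35 times as many fragments. Neither condition could be checked. Neither labels nor headers give the number of reads. The median summit value was 7.62 on day 0 and 6.80 on day 1. Values are therefore given as shares within a library, or over the 1000000 positions with the highest summit value in each list, whose smallest summit values were 9.15 and 7.77. The part that depth played in the differences below was not tested.

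At gene starts, the row of nucleosomes inside genes stood out more on day 1. Over 16456 autosomal protein-coding genes with a RefSeq start, centres were summed by summit value and divided by the level 800 to 1000 bp from the start. The +1 maximum lay 105 bp inside the gene at 1.62 times that level on day 0 and 115 bp inside at 2.41 times on day 1. The ratio between the days was 1.49 (SD over 18 autosomes 0.118, range 1.27 to 1.65), and day 1 was higher on 18 of 18 autosomes. The next maximum was 1.66 at 325 bp on day 0 and 2.45 at 315 bp on day 1. The 150 bp before the start held 0.712 of the flank level on day 0 and 0.855 on day 1, so the dip was shallower on day 1. With each position counted once the +1 ratio was 1.23, and with the 1000000 highest positions of each list it was 1.72.

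**Figure D1:**
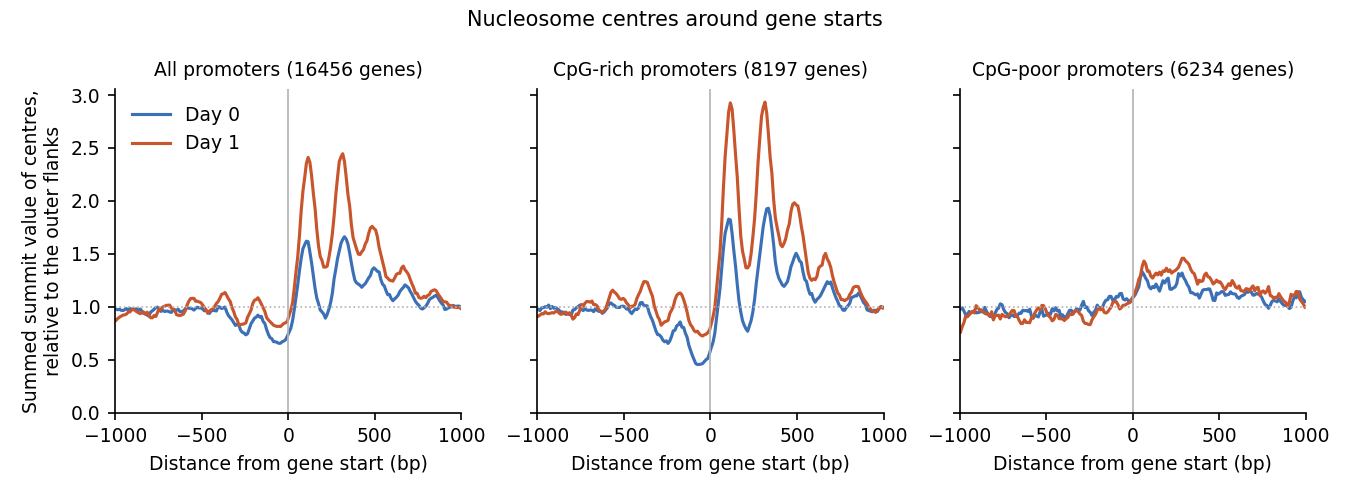
Summed summit value of nucleosome centres (y axis, relative to the level 800 to 1000 bp away) by distance from the gene start (x axis, bp, smoothed over 50 bp), for all, CpG-rich and CpG-poor promoters on day 0 (blue) and day 1 (orange). The +1 maximum of CpG-rich promoters is 1.83 on day 0 and 2.93 on day 1, while the CpG-poor curves stay within 1.5 on both days.

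The difference at gene starts was larger in CpG-rich promoters. CpG-rich promoters are common at broadly expressed genes, while CpG-poor promoters are more often tissue-restricted. Promoters were classed by the observed over expected CpG in the 300 bases around the start, as CpG-rich from 0.6 (8197 genes) and CpG-poor below 0.4 (6234 genes). The +1 maximum was 1.83 and 2.93 in CpG-rich promoters, with day 1 higher on 18 of 18 autosomes. In CpG-poor promoters it was 1.33 and 1.43, with day 1 higher on 16 of 18. The dip before the start went from 0.532 to 0.795 in CpG-rich promoters, with day 1 higher on 18 of 18 autosomes. In CpG-poor promoters it was 1.09 and 1.00, with day 1 higher on only 5 of 18.

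The GC share of the promoter moved with these differences. Relative occupancy is the summed summit value per base divided by its autosome-wide mean. Within 500 bp of the start it averaged 0.686 on day 0 and 0.796 on day 1 for promoters under 45% GC. From there it climbed in every 5-point class on both days, to 3.06 and 7.17 for promoters of 75% GC or more. The dip behaved in opposite ways at the ends of this scale. Under 45% GC it was 0.877 on day 0 and 0.675 on day 1, deeper on day 1, and at 75% GC or more it was 1.08 and 2.24, so that the 150 bp before the start were above the flanks on both days. Among CpG-rich promoters alone, the dip was deeper on day 1 in each class under 60% GC and shallower in each class from 60% up. It was 0.369 and 0.336 at 55 to 60% GC, and 0.420 and 0.559 at 60 to 65%. The +1 maximum, by contrast, was higher on day 1 in every GC class of CpG-rich promoters, from 1.65 and 2.01 under 45% GC to 1.82 and 3.61 at 75% or more. Whether GC-dependent recovery of fragments differed between the libraries was not tested.

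**Figure D2:**
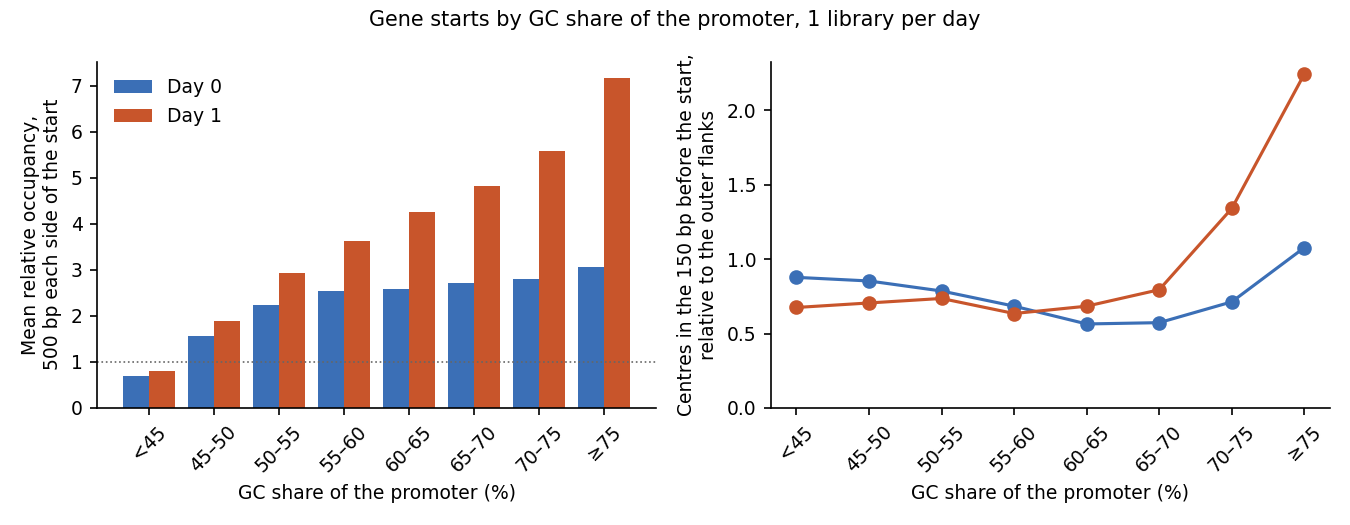
Left, mean relative occupancy within 500 bp of the gene start (y axis, 1 is the autosome-wide mean) by GC share of the promoter (x axis, %), on day 0 (blue) and day 1 (orange). Right, level of centres in the 150 bp before the start relative to the flanks, which on day 1 runs from 0.675 in the lowest GC class to 2.24 in the highest and on day 0 from 0.877 to 1.08.

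Among CpG-rich promoters of 55 to 65% GC, those with ETS or CCAAT letters had a deeper dip on both days. The letters were searched on both strands of the 300 bases, and the classes were compared among CpG-rich promoters of 55 to 65% GC to hold base composition nearly fixed. With the ETS letters CCGGAAG, found in 23.9% of that class, the dip was 0.292 on day 0 and 0.283 on day 1. Without them it was 0.433 and 0.520. With CCAAT (43.1% of the class) it was 0.282 and 0.320, and without it 0.485 and 0.571. With the GATA letters AGATAA or TGATAA (7.31% of the class) the dip was 0.448 and 0.420, and without them 0.394 and 0.466, so that on day 0 the order was the other way round. The +1 ratio was between 1.53 and 1.58 with or without any of these 3 motifs. Over all 16456 promoters, the letters were found in 12.3% (ETS), 39.1% (CCAAT) and 16.1% (GATA). In CpG-poor promoters the dip with the ETS letters (144 genes) was 1.10 on day 0 and 1.20 on day 1, so not deeper. Without them it was 1.09 and 0.997. With CCAAT the dip of CpG-poor promoters was 1.05 and 0.988, and without it 1.12 and 1.01.

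The strongest positions were compared by place. Of the 1000000 highest positions of each list, 105480 had a partner within 20 bp, which is 10.5% of each list (95% exact binomial interval 10.5 to 10.6%, counting error only). After moving 1 list by 1000 bp the share was 7.10%, a ratio of 1.49. Taken against all positions of the other list, 21.7% of the 1000000 highest of day 1 had a centre within 20 bp, and 16.1% after the move. The share between the 1000000 highest ranged from 7.14 to 13% of day 0 positions across autosomes. Among the 250000 highest positions of each list, taken against all positions of the other list, 64.4% on day 0 had a day 1 centre within 70 bp (53.5% after the move), and 1.20% (2996 positions) had none within 1000 bp (1.40% after the move). On day 1, 68.2% had a day 0 centre within 70 bp (56.7% after the move) and 0.256% (641 positions) had none within 1000 bp (0.380% after the move). These lone positions had fewer genes around them than the whole set of the 250000 highest, and a lack of neighbouring centres in itself picks sparsely listed DNA. Of the lone positions of day 0, 8.31% had 0 to 1 genes in the Mb around them, against 0.492% of the whole set. For day 1 the shares were 26.1% and 0.638%. On day 0 they sat in surroundings with a median of 7 genes per Mb, against 18 for the whole set, and 44.6% were in genes against 65.1%. On day 1 the medians were 4 and 18 genes per Mb, and 36.2% against 68.0% were in genes.

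Relative to the shifted level, sharing was higher at the +1 position than upstream of the start. Of the day 0 positions among the 1000000 highest that lay 100 to 200 bp inside a gene, 29.3% had a day 1 partner within 20 bp, against 8.54% after the 1000 bp move, a ratio of 3.44. In CpG-rich promoters the share was 34.1% and the ratio 3.86. From 1000 to 500 bp before the start the shares were 16.4% and 13.3%. Taken from the day 1 side, the share 100 to 200 bp inside genes was 15.4%, against 6.45% after the move, a ratio of 2.39. The 1000 bp move takes positions near a start into the flanks, where centres are listed less densely. Of the 1000000 highest of day 1, 4906 lay 100 to 200 bp inside genes. The wider stretch from 1000 to 500 bp before the start held 10448. These ratios therefore also hold the difference in local density, and its part was not tested.

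Positions were fuzzier on day 1. Among the 1000000 highest positions of each list the median fuzziness score was 51.1 on day 0 and 54.9 on day 1, a difference of 3.80 (SD over autosomes 0.281, range 3.40 to 4.45). Scores under 45, the most sharply placed nucleosomes, made up 13.9% of the day 0 set and 1.22% of the day 1 set. Over the 105480 pairs with centres within 20 bp the median difference was 3.21, and day 1 was fuzzier in 73.8% of pairs. Such pairs made up 10.5% of each set, and 7.10% after the 1000 bp move. Many of them therefore need not be the same nucleosome. At gene starts it was of similar size, with means of 50.6 and 54.0 for listed positions 100 to 200 bp inside genes. A fuzziness score taken from more fragments need not have the same scale, and the part of depth was not tested.

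Neighbouring centres lay closer on day 1. The median distance to the next listed centre was 252 bp on day 0 and 235 bp on day 1. Distances of 100 to 139 bp, shorter than the width of a position, made up 12% and 15.5% of all, and distances of 230 to 299 bp made up 17.9% and 12.7%. Gaps of 5000 bp or more were also more frequent on day 1 with all listed positions, at 1.77% and 2.90%. Among the 1000000 highest positions of each list the order was the other way round, at 7.02% and 6.15%. The repeat length, read as the slope through maxima of all pairwise distances from 150 to 1200 bp, was 209.6 bp on day 0 and 193.2 bp on day 1. With maxima from 300 bp on it was 188.2 bp (185 to 194 bp leaving out each autosome) and 193.2 bp (189 to 195 bp), so the direction of that difference depended on the first maxima, and no change in repeat length can be read from these lists.

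With all listed positions, the share of signal was lower in gene-poor and higher in gene-rich DNA on day 1. Bins of 100 kb were classed by the protein-coding genes in the Mb around them. Bins with 0 to 1 genes per Mb, which are 23.4% of bins, held 4.91% of summed summit value on day 0 and 3.78% on day 1, a ratio of 0.771 (SD over autosomes 0.149, with 2 of 19 autosomes above 1). Bins with 22 to 72 genes per Mb held 21.8% and 24.7%, a ratio of 1.13 (SD 0.0769, with 18 of 19 above 1). The classes between followed in order of gene density. Over the 1000000 highest positions of each list the ratios were 0.934 and 1.05, and the classes no longer followed in order. There, 10 of 19 autosomes were above 1 in the gene-poorest class, with a mean over autosomes of 0.979 (SD 0.283). The richest 10% of bins, ranked separately on each day, held 32.0% of the signal on day 0 and 39.4% on day 1. The profile of bins along the genome was otherwise alike: across 2413 bins of 1 Mb the Pearson correlation of the days was 0.966 and Spearman's 0.964, a description over bins that share their mappability and base composition.

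**Figure D3:**
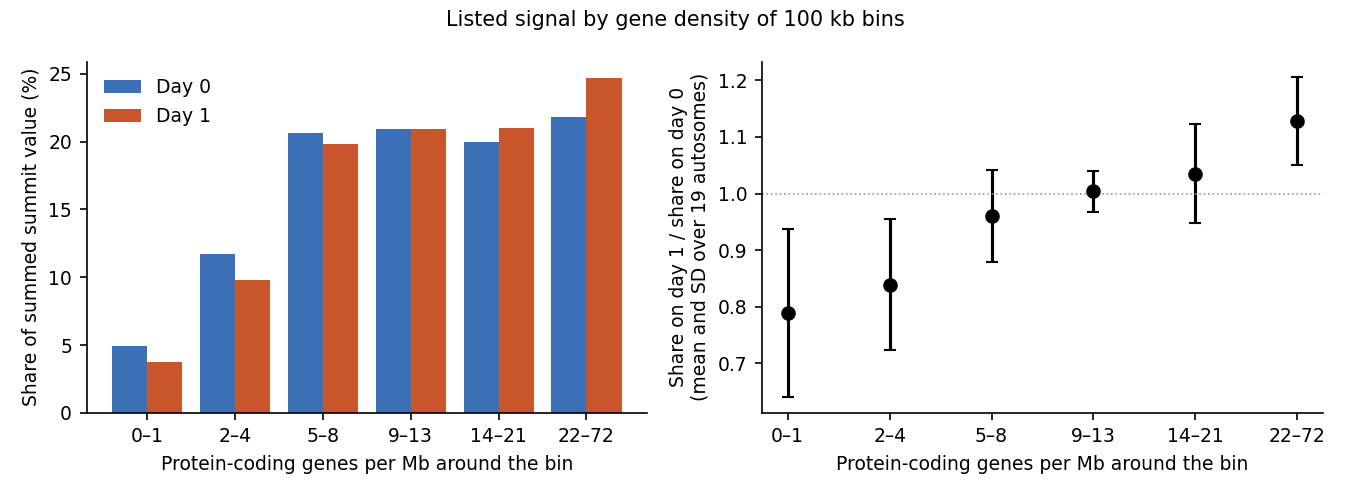
Left, share of summed summit value (y axis, %) by class of gene density (x axis, genes per Mb) on day 0 (blue) and day 1 (orange). Right, the ratio of the shares, as the mean (points) and SD (bars) over 19 autosomes, which with all listed positions lies below 1 for the classes of 0 to 4 genes and above 1 for the classes from 14 genes up.

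Autosomes differed in the same comparison. The share of signal on chromosome 19 was 2.88% on day 0 and 3.71% on day 1, a ratio of 1.29, followed by chromosome 15 at 1.12 and chromosome 17 at 1.10. The lowest ratios were 0.902 on chromosome 14 and 0.918 on chromosome 9. On chromosomes 15 and 19 the fold difference was larger at the centromere end, in stretches chosen after their values were seen. At chr15:3000001-25000000, relative occupancy was 0.262 and 0.440, a log2 difference of 0.75, and 21 of 22 bins of 1 Mb were higher on day 1. Over the rest of that chromosome the difference was 0.12. At chr19:3000001-22000000 it was 1.22 and 1.85, a log2 difference of 0.60, with 19 of 19 bins higher, against 0.23 over the rest.

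Of 2369 bins of 1 Mb that held 100 or more positions in both lists, 17 were 2-fold or more higher on day 1 and 141 were 2-fold or more lower. The largest gain was at chr12:115000001-116000000, which held 359 positions on day 0 and 1169 on day 1. Relative occupancy there was 0.195 and 0.826, a log2 difference of 2.08. RefSeq places 42 immunoglobulin heavy chain V segments and 12 V pseudogenes in it, and 0 protein-coding genes outside that class. These are the gene segments that B cell precursors join to make antibody genes, and they lie in a row far from the constant region. In bins of 200 kb the log2 difference reached 2.49 at chr12:115200001-115400000, while it was -0.29 at chr12:113200001-113400000, nearer the constant region. The next largest gains were at chr19:13000001-14000000, a cluster of olfactory receptor genes (0.0684 and 0.215, log2 1.65), and at chr19:19000001-20000000, which holds Rorb, a nuclear receptor gene (0.0853 and 0.236, log2 1.47). The largest losses were at chr8:118000001-119000000, which holds the long cadherin gene Cdh13 (0.484 and 0.108, log2 -2.16), chr14:28000001-29000000 with Erc2, Wnt5a and Cacna2d3 (0.469 and 0.109, log2 -2.11), and chr4:104000001-105000000 with Dab1 (0.508 and 0.118, log2 -2.10). Erc2 and Cacna2d3 encode a presynaptic scaffold and a calcium channel subunit, and Dab1 an adaptor of the reelin pathway. All 3 of these bins were already below the autosome-wide mean on day 0, and so were the 3 bins with the largest gains.

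**Figure D4:**
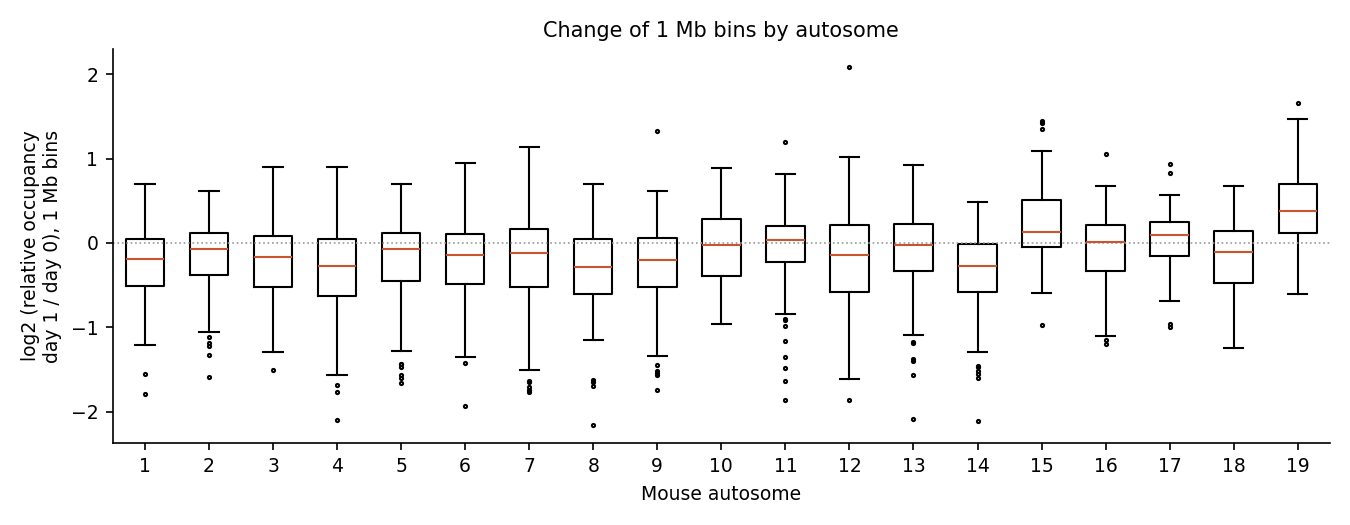
Log2 ratio of relative occupancy, day 1 to day 0 (y axis), of 1 Mb bins by autosome (x axis), with boxes for the middle 50% of bins, a line at the median, whiskers to 1.5 times the box and points beyond. Chromosome 19 stands highest, and the single bin at 2.08 on chromosome 12 is the stretch of immunoglobulin heavy chain V segments.

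Gene by gene, starts and bodies gave different pictures. Of 8288 genes that had 3 or more listed positions within 500 bp of the start in both lists, 2249 (27.1%) had 2-fold or more higher relative occupancy on day 1 and 35 (0.422%) 2-fold or more lower, with a median log2 difference of 0.63. Over the 13697 genes that held 20 or more positions in both lists, 132 (0.964%) were 2-fold or more higher and 504 (3.68%) lower, with a median of 0.19. The whole-gene difference fell with gene length, from a median of 0.41 for genes under 10 kb to -0.53 for genes of 300 kb or more, of which 119 of 532 were 2-fold or more lower. Start and whole-gene differences had a Pearson correlation of 0.126 across 6815 genes. These are fold sizes without a test. With each library scaled to the median of its own windows or genes, the split was 393 higher and 448 lower at starts and 50 higher and 822 lower over whole genes. For that reason lists are read below against the median of all genes.

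Of the 8 largest whole-gene gains, 4 were on chromosome 19, inside the raised stretch described above. Gda, which encodes guanine deaminase (chr19:21391307-21472661), held 97 positions on day 0 and 286 on day 1. Its relative occupancy was 0.677 and 2.91, a log2 difference of 2.10. Scaled to the length of the lists, its number of positions was 3.67 times as high on day 1 (exact 95% limits of counting error 2.90 and 4.66). Mrpl21, a mitochondrial ribosomal protein gene, was at 1.19 and 4.50 (log2 1.92). Dtx4, a ubiquitin ligase gene of the Notch pathway, was at 0.875 and 3.06 (log2 1.81), and Slc22a27, an organic anion transporter gene, at 0.103 and 0.340 (log2 1.73). The filaggrin genes of the epidermis lie side by side on chromosome 3, where Flg2 was at 0.594 and 2.34 (log2 1.98) and Flg at 0.895 and 2.65 (log2 1.57). Their 1 Mb bin differed by only -0.13, so the gain there was local. Sirpb1b on chromosome 3 (log2 1.63) and Csta2 on chromosome 16 (log2 1.62) completed the 8. Flg, Flg2, Sirpb1b, Csta2 and Slc22a27 contain repeats or have close copies, and reads shared with those make their values uncertain.

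The largest whole-gene losses were in genes with little listed signal left on day 1. Pappa, which encodes a secreted metalloproteinase (chr4:65124174-65357509), held 174 positions on day 0 and 30 on day 1. Its relative occupancy was 0.413 and 0.0832, a log2 difference of -2.31, and its scaled number of positions was 0.214 times that of day 0 (exact 95% limits 0.140 and 0.317). Dab1 (chr4:103619500-104744844) went with its 1 Mb bin, at 0.458 and 0.0991 (log2 -2.21, bin -2.10). Igsf21, an immunoglobulin superfamily gene, was at 1.63 and 0.340 (log2 -2.26), in a bin that differed by only -0.04. Tfcp2l1, a transcription factor gene, was at 1.26 and 0.264 (log2 -2.26). Prickle2, Plpp4 and Clstn2 had log2 differences of -2.19, -2.19 and -2.17. Igsf21 and Tfcp2l1 were above the autosome-wide mean on day 0 and well below it on day 1.

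At starts that held 5 or more positions in both lists, the largest gains were in very GC-rich promoters. Ralgps2, a Ras guanine exchange factor gene, went from a relative occupancy of 3.11 to 13.5 (log2 2.12), Nt5c2, a nucleotidase gene, from 3.65 to 15.4 (log2 2.08), and Dyrk1a, a protein kinase gene, from 2.91 to 11.4 (log2 1.96). Lcor, a nuclear receptor corepressor gene, went from 3.04 to 10.9 (log2 1.85) and Ikzf1 from 3.49 to 12.2 (log2 1.80). The promoter of Ralgps2 has 81.7% GC and that of Ikzf1 81.3%. Over the whole gene, Ikzf1 was also the highest erythroid factor gene, while Ralgps2 differed by 0.24 and Nt5c2 by 0.47. The largest start decreases were smaller, from -0.63 at Adam1b and -0.61 at Thap3 to -0.57 at Apon, -0.53 at Ssc4d and -0.50 at Fam186b, none of them 2-fold.

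Transcription factor genes of the erythroid programme had the highest median of the pathway lists with at least 5 measured genes. Gata1 lies on chromosome X and was not analysed here. Of 25 factors and cofactors, 23 were measured over the whole gene, with a median log2 difference of 0.57 against 0.19 for all genes, and 22 lay above that median and 1 below. Against genes of the same length class the median excess was 0.38. Counted against the 0.964% of all genes, 2 of the 23 were 2-fold or more higher. These were Ikzf1, at 1.61 and 3.74 (log2 1.21, from 231 to 370 positions), and Bcl11a, the repressor of fetal globin genes, at 1.72 and 3.73 (log2 1.12). Tal1, a basic helix-loop-helix factor of blood formation, was at 2.78 and 5.02 (log2 0.85), and Gfi1b, a repressor needed for red cells, at 4.32 and 5.39 (log2 0.32). Klf1 had 16 positions on each day, too few for the list, at 4.86 and 6.28. Sox6, a large gene, was the exception, at 1.17 and 0.987 (log2 -0.25). At their starts, Tal1, Gfi1b and Klf1 had log2 differences of -0.13, -0.31 and -0.41, below the 0.63 of all starts, and the list split 10 above to 8 below that median.

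Erythropoietin signalling genes carry the signal of the hormone in the medium. Of 20 genes 17 were measured, with a median of 0.45, and 16 lay above the median of all genes. Against genes of the same length class the median excess was 0.21. Epor itself was at 4.47 and 5.03 (log2 0.17), the lowest of them, and its start window went from 4 positions to 2, at 3.31 and 1.56. Irs2, an insulin receptor substrate gene, was the highest at 1.65 and 3.51 (log2 1.09), and Lyn, a tyrosine kinase gene, followed at 1.23 and 2.38 (log2 0.96). Jak2, the kinase on the receptor, was at 1.40 and 1.91 (log2 0.45), and Stat5a, the factor it activates, at 3.92 and 5.36 (log2 0.45). Bcl2l1, the survival gene of late erythroblasts, was at 3.51 and 4.72 (log2 0.43).

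The genes of the red cell's own products showed smaller whole-gene differences in the same direction. The globin genes are too short to be measured over the whole gene. Hba-a1 held 4 positions on day 0 and 2 on day 1, at 4.22 and 1.91, and Hbb-bt also 4 and 2, at 1.64 and 1.09, and with such numbers no difference was detectable. Reads of Hba-a1 and Hba-a2, which are nearly identical, cannot be told apart with certainty. All 12 genes of heme synthesis were measured, with a median of 0.43 and 11 above the median of all genes. Cpox, a porphyrin oxidase gene, was the highest at 1.56 and 3.45 (log2 1.15), and Urod, a decarboxylase gene, the lowest at 4.41 and 4.71 (log2 0.10). Of 14 measured iron genes 9 were above, with a median of 0.31. Tfrc, the transferrin receptor, was at 2.04 and 3.42 (log2 0.75), and Slc25a37, the mitochondrial iron importer, at 0.953 and 1.80 (log2 0.92). Of 24 measured genes of the membrane and its skeleton 17 were above, with a median of 0.39. Slc4a1, the anion exchanger band 3, was at 3.78 and 4.95 (log2 0.39), and Add2, beta adducin, was the lowest at 2.59 and 2.03 (log2 -0.35). At gene starts these lists lay on the other side of all genes, with medians of 0.38 for heme, 0.43 for iron and 0.31 for the membrane against 0.63. Over whole genes, the median excess against genes of the same length class was 0.18 for heme, 0.07 for iron and 0.26 for the membrane.

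Progenitor genes did not form a group apart. Of 15 measured, 11 lay above the median of all genes, with a median of 0.35. Kit, the stem cell factor receptor, was at 2.04 and 2.46 (log2 0.27), Gata2, the progenitor GATA factor, at 3.92 and 4.77 (log2 0.28), and Spi1, the myeloid factor PU.1, at 3.97 and 6.14 (log2 0.63). Fli1, an ETS factor of megakaryocytes, was the highest at 1.63 and 2.83 (log2 0.80). Mecom, a stem cell factor gene, was 2-fold lower at 0.492 and 0.241 (log2 -1.03), the only one of the 15 to pass that size, against 3.68% of all genes.

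Cell cycle genes, whose products drive the last divisions, were measured for 32 of 38, with a median of 0.42 and 25 above all genes. Against genes of the same length class the median excess was 0.17, with 20 above and 12 below. Cdk6, a cyclin-dependent kinase gene, was the highest at 1.23 and 2.68 (log2 1.12, from 385 to 612 positions), although its start window was lower, at 3.37 and 2.16. Bub1, a spindle checkpoint gene, was the lowest at 1.45 and 0.977 (log2 -0.57). Genes of nuclear condensation and enucleation had a median of 0.29 over 37 measured, with 23 above and 14 below. Foxm1, a mitotic factor gene, was at 2.53 and 4.12 (log2 0.70), and Diaph3, a formin gene, at 0.718 and 0.572 (log2 -0.33). Of 17 genes of mitophagy and organelle clearance 12 were above, with a median of 0.32. Foxo3, a factor of late erythroid maturation, was at 2.57 and 4.54 (log2 0.82). Chromatin remodelling genes had a median of 0.24, with 17 of 30 above, and Hmgb1, a chromatin protein gene with many processed copies, was at 2.14 and 4.30 (log2 1.01). Housekeeping enzymes lay as high as most erythroid lists, at a median of 0.53 with 12 of 14 above. Those measured were short, with a median length of 9025.5 bp against 29607 bp for all. Against genes of the same length class their median excess was 0.13. Of 78 cytosolic ribosomal protein genes only 18 were long enough to be measured, with a median of 0.36. Of 63 replication-dependent histone genes 3 were measured.

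Of the 6 lists of other cell types, 4 had a median below that of all genes and 2, megakaryocyte and macrophage, above it. Neural genes had a median of -0.55, with 6 of 8 below the median of all genes, and 2 were 2-fold or more lower. These were Rbfox3, a neuronal splicing factor gene, at 2.41 and 0.878 (log2 -1.46), and Map2, a dendrite protein gene, at 0.274 and 0.107 (log2 -1.35). Endothelial genes had a median of -0.09 with 7 of 10 below, and Tek, the angiopoietin receptor, was at 0.630 and 0.292 (log2 -1.11). Lymphoid genes had a median of -0.10 with 6 of 9 below, and Pax5, the B cell factor, was at 1.71 and 0.775 (log2 -1.14). Hepatocyte genes, the main other cells of fetal liver, split 3 to 3 with a median of 0.09. Alb and Afp, the plasma protein genes of fetal hepatocytes, had under 20 positions on day 1, at 0.623 and 0.257 and at 0.770 and 0.325. Macrophage genes had a median of 0.22, with 5 of 9 above, and Marco, a scavenger receptor, was the lowest at 1.21 and 0.438 (log2 -1.47). Megakaryocyte genes had a median of 0.38, with 5 of 6 above. The median length was 56788 bp for the measured neural genes and 53658 bp for the endothelial genes against 29607 bp for all, while the other 4 lists were shorter than all, the lymphoid at 11281 bp. Against genes of the same length class the neural median was lower by -0.38, the endothelial by -0.28 and the lymphoid by -0.17. In start windows the neural median was 1.09, above the 0.63 of all genes.

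A group of 3 marker genes with too few positions for the lists was higher on day 1, and they lie in the raised stretches of chromosomes 15 and 19. Il7r, the interleukin 7 receptor of lymphoid precursors, held 7 positions on day 0 and 29 on day 1, at 0.166 and 0.858. Ms4a1, which encodes the B cell antigen CD20, held 11 and 37, at 0.379 and 1.57. Mpeg1, a macrophage pore protein gene, held 4 and 18, at 0.479 and 3.80. They were named after their values were seen.

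**Figure D5:**
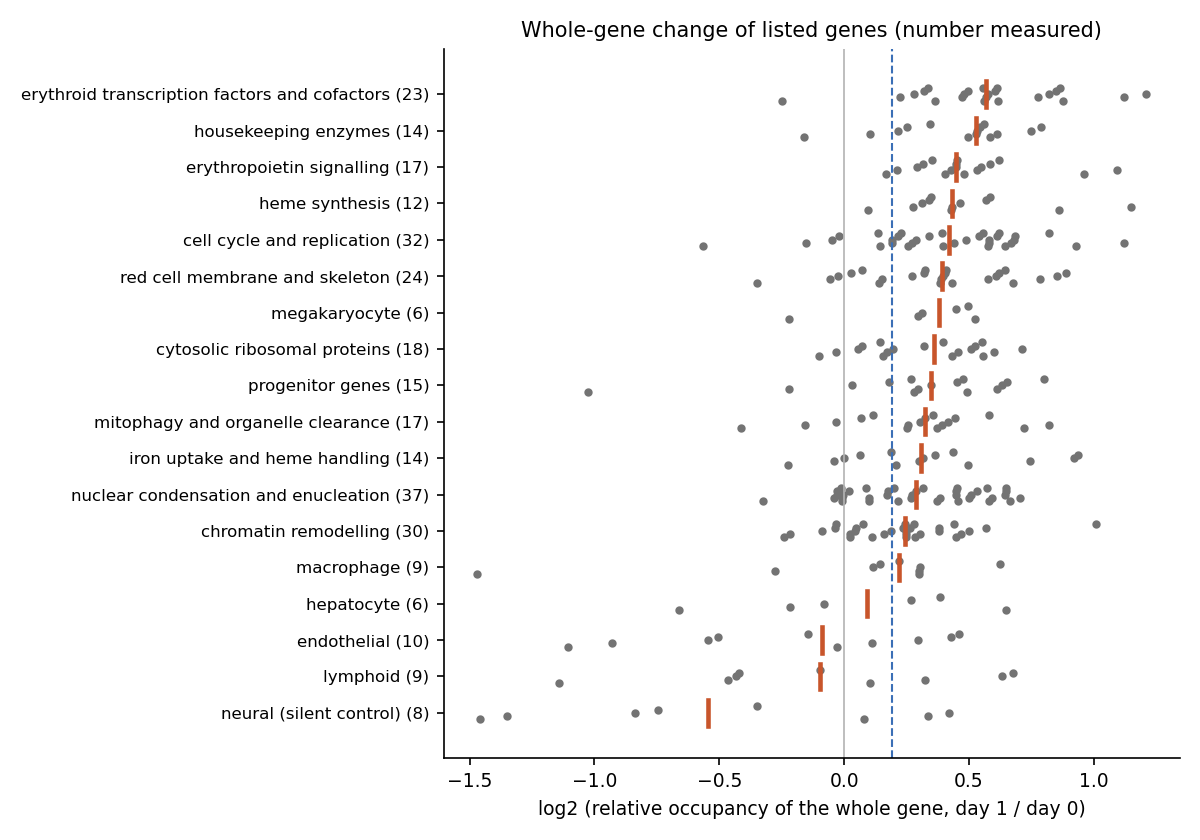
Log2 ratio of whole-gene relative occupancy, day 1 to day 0 (x axis), of the measured genes (points) of each list with 5 or more measured genes, olfactory receptors left out (rows, number measured in brackets), with the list median as an orange bar and the median of all genes, 0.19, as a dashed blue line. Among these lists the erythroid transcription factors stand highest at 0.57 and the neural genes lowest at -0.55.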

How the data were processed

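Nucleosome position lists of day 0 and day 1 were used, 1 library each; the day 2 list was only counted. The labels name mononucleosomal DNA cut by micrococcal nuclease and sequenced. The submitters' processing notes name Bowtie2, bedtools and mm10, without versions. The position caller, its normalization and the read totals are named in neither labels nor headers. Summit values are the signal at each position's centre as deposited by the authors, per the file headers, and fuzziness is the deposited score. Deposited p-values were not used.

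Positions on autosomes were kept, leaving out 46375 on day 0 and 31952 on day 1. Occupancy was the summed summit value per base over the autosome-wide mean. Gene ends came from RefSeq and strand-aware starts from RefSeq promoters of GRCm38.p6 (16456 of 20556 autosomal protein-coding genes, none on chromosome 18). Whole genes needed 20 positions and start windows of 500 bp each side needed 3, in each list. A difference of 2-fold was called by size, with no test. Shares have exact binomial intervals at 95%, for counting error only. Named genes were the 8 largest whole-gene differences and 5 largest start-window differences in each direction (the latter with at least 5 positions), 3 regions each way, up to 2 highest and 2 lowest per list, and 12 genes set by name, passing over unnamed models and close neighbours; 1 gene that the rule takes is not reported here. Members and lists were chosen with earlier results of these data known. Functions were tested on simulated lists. Python, numpy, pandas and scipy were used.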

Additional observations from a re-analysis of the deposited data

Results flagged for a closer look

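Listed positions outside the autosomes took no part in any comparison. Chromosome X held 45232 positions on day 0 and 30972 on day 1, and chromosome Y held 1127 and 975. The mitochondrial genome held 16 and 5 positions. These values were set apart because they lie in data outside the comparisons, and there was no control sample to set them against.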

How the results depend on the processing

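No paired analysis was possible because each day has 1 library, and for the same reason no replicate could be left out. Depth (2.35-fold if 1 step of the summit values stands for 1 fragment and both signals were scaled to the same total) limits every comparison of summits. Shared positions were 13.7% with all listed positions, 5.28% with the 250000 highest, 6.18% within 10 bp and 18.5% within 40 bp. The fuzziness difference was 3.46 with all positions and 4.21 with the 250000 highest. The difference in spacing, -16.4 bp, was -8.40 bp with the 1000000 highest positions and 5.0 bp with maxima from 300 bp on. Gene-poorest bins had ratios of 0.934 with the 1000000 highest positions and 0.926 with summits of 10 or more, and gene-richest bins 1.05 with the former. The +1 ratio was 1.72 with the 1000000 highest and 1.23 with positions counted once over all promoters, and 1.89 and 1.26 in CpG-rich promoters. The upper and lower promoters by CpG share, in 3 equal classes, added after seeing the data, gave 1.65 and 1.05. Start windows 2-fold higher numbered 292 with the 1000000 highest positions, 5302 with no minimum, 879 counted once and 393 scaled to the median window. Those lower numbered 191 with 1000 bp each side, 11 with the 1000000 highest, 1567 with no minimum, 0 counted once and 448 scaled. Whole genes higher numbered 66 counted once, 234 with the 1000000 highest, 301 and 49 with minimums of 10 and 50 positions, and 50 scaled. Those lower numbered 314 with a minimum of 50 and 822 scaled. Of the lists, 14 had a median above that of all genes over whole genes and 8 in start windows. List medians minus that of all genes turned in start windows for heme synthesis (-0.25), iron (-0.20), erythropoietin signalling (-0.0100), membrane (-0.32), progenitor (-0.0722), cell cycle (-0.19), lymphoid (0.00107) and neural genes (0.46). Nuclear condensation and enucleation (-0.21) and macrophage genes (-0.48) also turned there, from small whole-gene values of 0.0949 and 0.0259. With the 1000000 highest positions the medians turned for iron (-0.0756), chromatin remodelling (-0.0988), ribosomal proteins (-0.47) and endothelial genes (0.0722). Against genes of the same length class, a reference added after seeing the data, they turned for ribosomal proteins (-0.0508). The direction of the genes named for the largest whole-gene differences held under both alternatives that could be computed for them, and the cause of the other shifts was not tested.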

Other observations

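The bin at chr9:3000001-4000000 stood apart in summit height rather than in number of positions. It held 535 positions on day 0 and 600 on day 1, but their mean summit value was 6.41 and 10.9, and 250 of the 600 were among the 1000000 highest on day 1 against 22 on day 0. Its log2 difference in relative occupancy was 1.33, and 0.48 with each position counted once.

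Olfactory receptor genes, which are silent outside nasal tissue for the most part, often held no listed position. Of 1103 genes, 549 had none on day 0 and 526 had none on day 1, against 1055 and 1183 of all 20556 protein-coding genes. Over all 1103, those with no position included, the median relative occupancy was 0.0542 on day 0 and 0.169 on day 1. Both medians lie near the floor, so no gain can be read from them. Only 5 receptors were measured over the whole gene. Their median log2 difference was -0.46, and 4 of the 5 lay below the median of all genes. Rag1, a recombinase gene of lymphocytes, had 5 positions within 500 bp of its start on day 0 and 0 on day 1, while over the whole gene it held 21 and 26. It was named after its values were seen.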
